A study of Mus musculus with 18 samples.

Results

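10 genes of the circadian clock were followed in the colon: Arntl (also written Bmal1), Clock, Per1, Per2, Per3, Cry1, Cry2, Nr1d1, Nr1d2 and Dbp. These 10 of the 47729 genes in the count table were chosen by their symbols as the core of the molecular clock, as a check on whether the groups differed in clock state, for example through the time of tissue collection. All 10 were found in the table, each under 1 Ensembl identifier (coordinates below are on GRCm38), and all 10 had enough counts to be tested in every comparison. RNA was sequenced from the colons of 9 mice on a C57BL/6 background, 3 in each of 3 groups. Control WT mice (mice 1 to 3) carried no transgene and were untreated by their treatment label, although the protocol text repeats the treatment under them. AOM-DSS WT mice (mice 4 to 6) received a single dose of azoxymethane (AOM, a carcinogen) at 10 mg/kg and 3 cycles of 2.5% dextran sulfate sodium (DSS, which injures the colon lining) in the drinking water, a regimen that gives colitis-associated tumours. AOM-DSS Claudin-2TG mice (mice 7 to 9) had the same treatment and a Cldn2 transgene driven by the villin promoter, which is active in the intestinal epithelium. The data hold no untreated Claudin-2TG group, so the transgene was compared within treated mice only. Age and the hour of tissue collection are not given in the sources used here.

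The clock is a feedback loop of transcription that runs in nearly every cell, the colon epithelium included, and is set by light through the brain and by feeding. ARNTL and CLOCK (or its relative NPAS2) bind E-box elements and switch on the Per, Cry, Nr1d and Dbp genes. PER and CRY proteins then block ARNTL and CLOCK, while NR1D1 and NR1D2 (REV-ERB alpha and beta) repress Arntl through ROR elements, so that Arntl is high when Nr1d1 and Dbp are low. In peripheral tissues of mice the RNAs peak in a fixed order: Arntl, Npas2 and Nfil3 around the end of the night, Nr1d1 in the day, Dbp and Per3 later in the day, Per2 towards dusk and Cry1 last, in the night.

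The DNA elements through which this loop works can be read in the RefSeq promoters (GRCm38.p6, 250 bases before to 50 after each start), which were matched for 9 of the 10 genes with 13 starts. The stretches below are shown for the matches that they hold in capitals. These are an ROR element of the kind through which Arntl is repressed, D-boxes that DBP binds and E-boxes that ARNTL and CLOCK bind. Ciart, a further repressor of the loop, is added for its copies of the E-box.
Arntl, chr7:113207519-113207548, plus strand: gacatttagggaaggcagAAAGTAGGTCAg
Per3, chr4:151044806-151044880, minus strand: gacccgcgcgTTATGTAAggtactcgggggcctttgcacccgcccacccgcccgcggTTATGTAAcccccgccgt
Cry1, chr10:85185090-85185149, minus strand: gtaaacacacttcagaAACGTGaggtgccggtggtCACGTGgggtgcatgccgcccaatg
Per1, chr11:69098763-69098822, plus strand: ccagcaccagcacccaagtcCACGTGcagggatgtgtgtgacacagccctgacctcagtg
Ciart, chr3:95882259-95882358, minus strand: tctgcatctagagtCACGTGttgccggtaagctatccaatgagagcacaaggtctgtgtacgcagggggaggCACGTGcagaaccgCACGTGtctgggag
The E-box (CACGTG) stood in the window of 2 of the 9 genes, Cry1 and Per1, and in 7.15% of all 32851 promoters. Its variant CACGTT, searched on both strands and seen as its reverse complement in Cry1, stood in Cry1, Cry2 and Nr1d1 and in 4.68% of promoters. The D-box (TTATGTAA or TTACGTAA) was found only in Per3 among the 9, with 2 copies that begin 205 and 158 bases before the start, and in 1.06% of promoters. The ROR element was found only in Arntl among the 9, where it begins at base 27 of the transcript, and in 0.384% of promoters. These matches describe the letters of the windows and say nothing of binding in these mice.

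The 9 libraries held 14142711 to 22262546 counts on genes, and the 2 sequencing lanes of a library differed by about counting noise (a chi-square of 0.995 to 1.057 per degree of freedom, where mice of 1 group gave 16.8 to 66.3), so they were summed. Levels are given as CPM, the counts of a gene scaled to a common library total after edgeR's TMM normalization, and a gene is called changed where edgeR's quasi-likelihood test gave an adjusted p-value under 0.05 over all genes tested. The labels number the libraries and say nothing more of how they relate, so the p-values measure the spread between these samples. The tissue label held in that epithelial markers summed to 11100 to 15000 CPM in every mouse. Cldn2 itself was 191, 259 and 245 CPM in the Control WT mice, 119, 137 and 132 CPM in the AOM-DSS WT mice and 208, 218 and 251 CPM in the AOM-DSS Claudin-2TG mice, so the transgenic mice lay above the treated WT mice and within the range of the controls. Control WT mouse 1 was the only mouse with the RNA pattern of a female (Xist at 214 CPM, at most 0.203 CPM in the others).

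**Figure D1:**
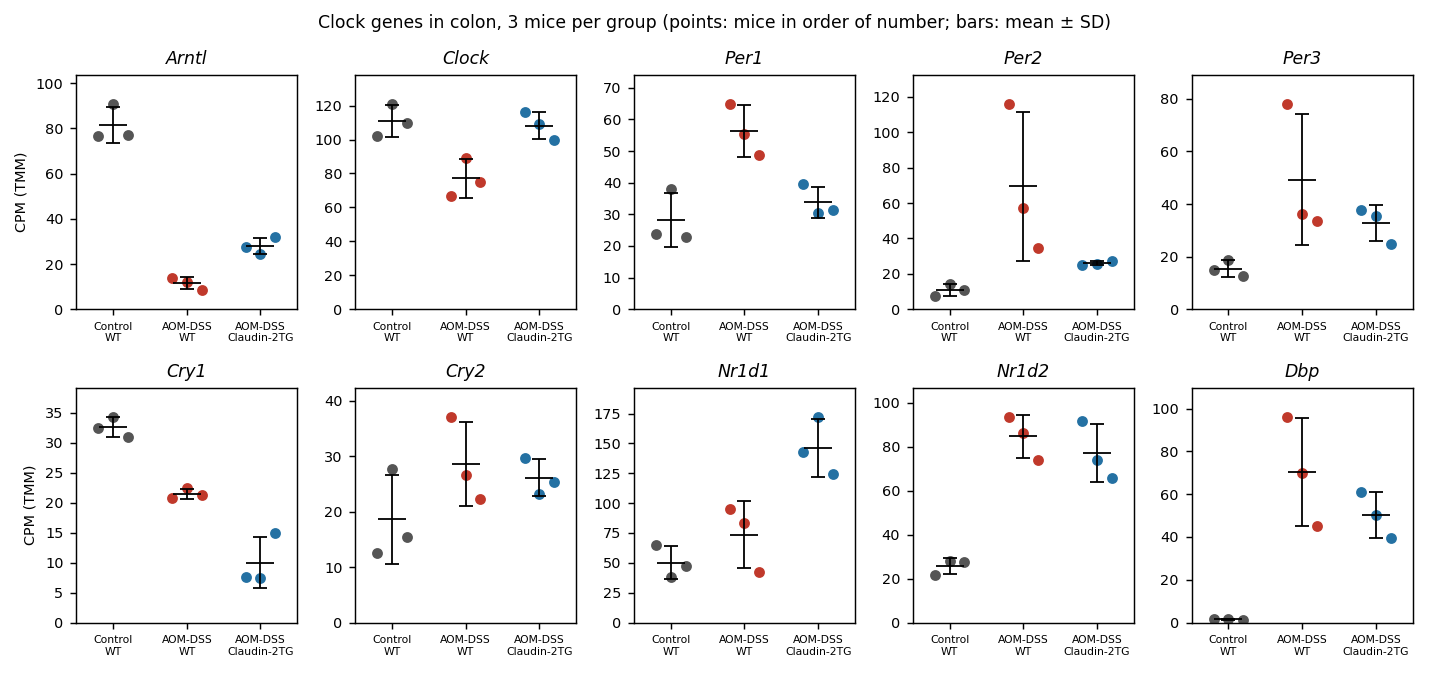
Level of each clock gene in CPM (vertical axes, linear and starting at 0) in the 3 groups, with 1 point per mouse and bars for the mean ± SD of 3 mice. Dbp sat at 1.39 to 1.86 CPM in the Control WT mice and at 39.7 to 96.0 CPM in the 6 treated mice, while Arntl sat at 76.6 to 90.8 CPM in the Control WT mice and at 8.44 to 31.9 CPM in the treated mice.

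AOM-DSS WT mice were compared with Control WT mice to see what differed in the clock genes after treatment. The activator Arntl was 6.98-fold lower, Dbp, the clock-driven output factor, was 43.5-fold higher, and Per1, Per2, Per3 and Nr1d2 were higher with it, while Clock and Cry1 were moderately lower. Of the 10 genes, 8 were called, 5 higher and 3 lower, where 15.0% of all 15437 genes tested were called. The same 8 had groups without overlap, which 38.0% of all genes had. The median size of the log2 fold change was 1.37 over the 10 genes and 0.30 over all genes tested.

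Arntl (ENSMUSG00000055116, chr7:113207465-113314122, plus strand), which encodes the obligate partner of CLOCK, was 76.6, 90.8 and 76.9 CPM in the Control WT mice and 13.6, 12.2 and 8.44 CPM in the AOM-DSS WT mice. Every treated mouse lay far below every control, and the log2 fold change was -2.80 (SE 0.19, adjusted p = 0.000813 from edgeR). Clock (ENSMUSG00000029238, chr5:76209868-76304792, minus strand), the other activator, was 102, 121 and 110 CPM in controls and 66.9, 89.2 and 75.0 CPM in treated mice. The groups did not overlap, but the log2 fold change was only -0.50 (SE 0.13, edgeR adjusted p = 0.0402).

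The Period genes, which encode the PER repressors, all moved upward. Per1 (ENSMUSG00000020893, chr11:69095217-69109960, plus strand) was 23.7, 38.1 and 22.8 CPM in controls and 64.9, 55.5 and 48.7 CPM in treated mice (log2 fold change 1.03, SE 0.22, edgeR adjusted p = 0.0237). Per2 (ENSMUSG00000055866, chr1:91415982-91459324, minus strand) was 7.42, 14.2 and 10.9 CPM in controls and 116, 57.3 and 34.8 CPM in treated mice (log2 fold change 2.70, SE 0.47, edgeR adjusted p = 0.018). The treated mice spread widely here, with mouse 4 highest and mouse 6 lowest for both genes. Per3 (ENSMUSG00000028957, chr4:151003652-151044665, minus strand) was 14.8, 18.9 and 12.5 CPM in controls and 78.1, 36.1 and 33.7 CPM in treated mice (log2 fold change 1.71, SE 0.35, edgeR adjusted p = 0.025), again with mouse 4 well above the rest. The products of the Cryptochrome genes block ARNTL and CLOCK together with PER. Cry1 (ENSMUSG00000020038, chr10:85131702-85185054, minus strand) was 32.5, 34.3 and 31.0 CPM in controls and 20.8, 22.4 and 21.3 CPM in treated mice, a fall with very little spread in either group (log2 fold change -0.58, SE 0.11, edgeR adjusted p = 0.0181). Cry2 (ENSMUSG00000068742, chr2:92403646-92434043, minus strand) was 12.5, 27.7 and 15.5 CPM in controls and 37.0, 26.6 and 22.2 CPM in treated mice. The groups overlapped because control mouse 2 was high, and the log2 fold change of 0.65 did not pass (95% interval -0.09 to 1.39, edgeR adjusted p = 0.199).

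Both REV-ERB genes had positive fold changes, and Nr1d2 alone was called. Nr1d2 (ENSMUSG00000021775, chr14:18204054-18239127, minus strand) was 21.6, 27.9 and 27.7 CPM in controls and 93.4, 86.4 and 74.1 CPM in treated mice, without overlap (log2 fold change 1.74, SE 0.14, edgeR adjusted p = 0.00168). Nr1d1 (ENSMUSG00000020889, chr11:98767932-98775333, minus strand) was 65.0, 37.9 and 47.2 CPM in controls and 95.4, 83.5 and 42.1 CPM in treated mice. Mouse 6 lay inside the control range, and the log2 fold change of 0.58 did not pass (95% interval -0.17 to 1.34, edgeR adjusted p = 0.252). Dbp (ENSMUSG00000059824, chr7:45705247-45710203, plus strand), a PAR-bZIP factor that passes the rhythm on to D-box genes, was 1.69, 1.86 and 1.39 CPM in controls and 96.0, 70.0 and 45.3 CPM in treated mice. Even the lowest treated mouse was far above the highest control. The log2 fold change of 5.44 (SE 0.32, edgeR adjusted p = 0.000629) ranked 5 by p-value and 47 by size among the 15437 genes tested.

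By the two-sided exact permutation test on single genes, each of the 8 without overlap had p = 0.1, and groups of 3 cannot give a smaller value. With 1 control mouse left out, 3 genes were called without mouse 1, 4 without mouse 2 and 3 without mouse 3, while calls over all genes went from 2310 to 631, 135 and 404. Arntl, Nr1d2 and Dbp were called in all 15 alternative fits. With no mouse left out, Per2 and Per3 lost their calls without a filter (edgeR adjusted p = 0.076 and 0.0834). Cry1 lost its call with all 9 libraries in one fit (edgeR adjusted p = 0.0884). Calls over all genes went from 2310 to 2490 and 3171 in these fits. Leaving out any 1 of the 6 mice kept the log2 fold change of Clock within -0.61 to -0.42, Per1 within 0.88 to 1.30, Per2 within 2.11 to 3.02, Per3 within 1.20 to 1.92 and Cry1 within -0.63 to -0.55. Without mouse 1, the mouse with the female pattern, the log2 fold changes of Clock, Per1, Per2, Per3 and Cry1 were -0.56, 0.91, 2.49, 1.68 and -0.58 with edgeR adjusted p-values of 0.0605 to 0.0822.

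AOM-DSS Claudin-2TG mice were compared with AOM-DSS WT mice, which had the same treatment without the transgene. Arntl was higher in the transgenic mice, and Per1 and Cry1 were lower. Of the 10 genes, 3 were called, 1 higher and 2 lower, where 9.54% of all 14888 genes tested were called, and 6 had groups without overlap, as 28.5% of all genes had. The median size of the log2 fold change was 0.69, against 0.22 over all genes tested. Dbp, Nr1d2, Per3 and Cry2 overlapped between the groups.

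Arntl was 27.5, 24.6 and 31.9 CPM in the AOM-DSS Claudin-2TG mice, so that each lay between the treated WT mice and the controls. Its log2 fold change against AOM-DSS WT was 1.27 (SE 0.20, edgeR adjusted p = 0.0103). Clock, at 116, 109 and 99.7 CPM, was also above every AOM-DSS WT mouse, with a log2 fold change of 0.47 that did not pass (95% interval 0.15 to 0.78, edgeR adjusted p = 0.0697). Per1 was 39.5, 30.5 and 31.4 CPM, below every AOM-DSS WT mouse (log2 fold change -0.76, SE 0.16, edgeR adjusted p = 0.0226). Per2 was 25.0, 25.8 and 27.2 CPM, a narrow range that lay wholly below the AOM-DSS WT mice. Its log2 fold change of -1.44 did not pass the test beside the wide spread of the treated WT mice (95% interval -2.39 to -0.49, edgeR adjusted p = 0.0731).

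Cry1 was 7.65, 7.40 and 15.0 CPM in the AOM-DSS Claudin-2TG mice, lower than in every mouse of both other groups (log2 fold change against AOM-DSS WT -1.13, SE 0.27, edgeR adjusted p = 0.0347). Nr1d1 was 143, 172 and 124 CPM, higher than in every mouse of both other groups, with a log2 fold change against AOM-DSS WT of 0.97 that did not pass (95% interval 0.30 to 1.63, edgeR adjusted p = 0.0791). These 2 genes stood outside the order of the rest, since for the other 8 the mean log2 CPM of the AOM-DSS Claudin-2TG mice lay between those of the other 2 groups. Dbp was 60.8, 50.4 and 39.7 CPM, and its log2 fold change of -0.51 had a 95% interval of -1.14 to 0.13 (edgeR adjusted p = 0.33). Nr1d2 was 91.8, 73.9 and 65.7 CPM, with a log2 fold change of -0.16 and a 95% interval of -0.52 to 0.20 (edgeR adjusted p = 0.648). Per3, at 37.8, 35.6 and 25.0 CPM, and Cry2, at 29.7, 23.2 and 25.3 CPM, had log2 fold changes of -0.61 (95% interval -1.42 to 0.19, edgeR adjusted p = 0.354) and -0.16 (95% interval -0.62 to 0.30, edgeR adjusted p = 0.733).

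The calls depended on which mice were fitted: edgeR called 0 genes without mouse 8 (6 at an unadjusted p under 0.05), 1 without mouse 5 or mouse 9, and 5 without mouse 4, while calls over all genes went from 1421 to 58 without mouse 8, 555 without mouse 5, 108 without mouse 9 and 2894 without mouse 4. The log2 fold changes stayed within 1.11 to 1.42 for Arntl, -0.88 to -0.64 for Per1 and -1.53 to -0.94 for Cry1 whichever mouse was left out. Mouse 4 moved Per2 and Per3 most, to -0.84 (edgeR adjusted p = 0.0155) and -0.10 without it, with ranges of -1.75 to -0.84 and -0.82 to -0.10. DESeq2 called 6 of the 10, adding Clock, Per2 and Nr1d1 (adjusted p = 0.0411, 0.000614 and 0.0054), and edgeR with all 9 mice in one fit called 5, adding Clock and Per2, while calls over all genes rose from 1421 to 2183 and 2136.

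**Figure D2:**
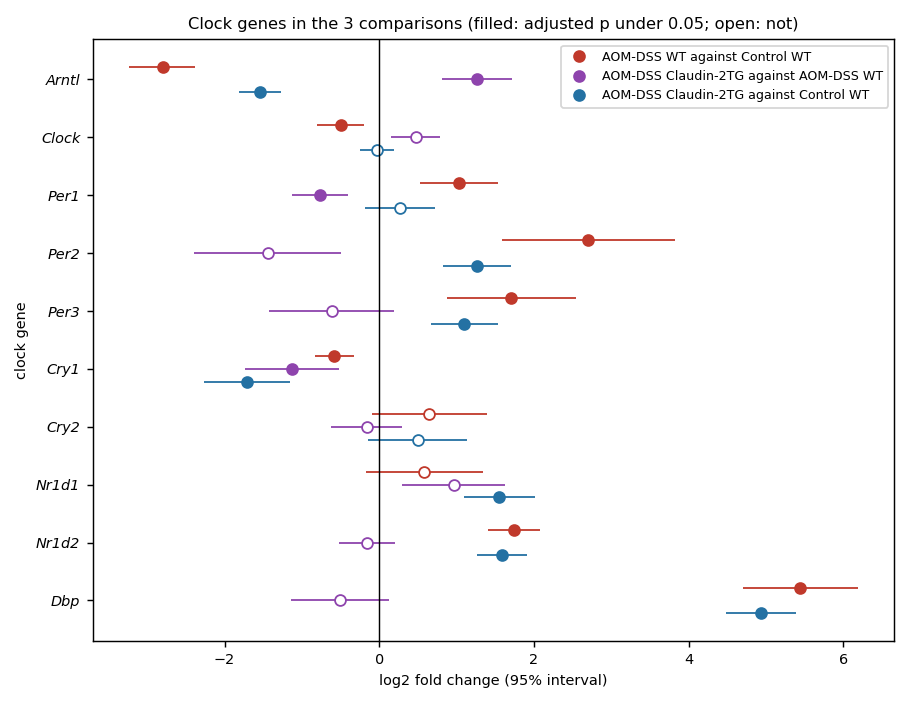
Log2 fold change (horizontal axis) of each clock gene in the 3 comparisons, with 95% intervals from edgeR's fit, filled where the adjusted p-value was under 0.05 and open where it was not. Dbp stood at 5.44 and 4.94 in the treated groups against Control WT and at -0.51 between them, while Arntl stood at -2.80, -1.54 and 1.27.

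AOM-DSS Claudin-2TG mice were also compared with Control WT mice, from which they differ in both treatment and transgene. Of the 10 genes, 7 were called, 5 higher (Per2, Per3, Nr1d1, Nr1d2 and Dbp) and 2 lower (Arntl and Cry1), where 10.0% of all 15013 genes tested were called. The same 7 had groups without overlap, as 31.2% of all genes had, and the median size of the log2 fold change was 1.41, against 0.21 over all genes tested. This comparison shares its mice with the other 2, so its values stand beside theirs and add no independent evidence.

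Dbp was 30.7-fold higher (log2 fold change 4.94, SE 0.20, edgeR adjusted p = 1.02e-06) and ranked 1 by p-value and 3 by size among the 15013 genes tested. Nr1d2 and Nr1d1 were higher by 1.59 (SE 0.15, edgeR adjusted p = 0.000572) and 1.55 (SE 0.20, edgeR adjusted p = 0.00515) on the log2 scale. Per2 and Per3 had log2 fold changes of 1.27 (edgeR adjusted p = 0.00569) and 1.10 (edgeR adjusted p = 0.00916), less than in treated WT mice. Their differences between the treated groups are given above, with the calls of Per2 by tool. Arntl was lower by -1.54 (SE 0.12, edgeR adjusted p = 0.00018) and Cry1 by -1.71 (SE 0.25, edgeR adjusted p = 0.00581). Clock, Per1 and Cry2 had log2 fold changes of -0.03, 0.27 and 0.50 with 95% intervals of -0.25 to 0.19, -0.19 to 0.72 and -0.14 to 1.13 (edgeR adjusted p = 0.878, 0.44 and 0.297). Between 7 and 8 of the 10 were called whichever mouse was left out. With all 9 mice in one fit, Per2 and Per3 had log2 fold changes of 1.26 and 1.09 and were no longer called (edgeR adjusted p = 0.131 and 0.112), while calls over all genes went from 1501 to 445.

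Ratios between clock genes of opposite phase place each mouse without reference to the scaling of its library. The log2 ratio of Dbp to Arntl was -5.50, -5.61 and -5.79 in the Control WT mice, 2.82, 2.52 and 2.42 in the AOM-DSS WT mice and 1.15, 1.04 and 0.32 in the AOM-DSS Claudin-2TG mice. The 3 groups were far apart, with within-group SDs of 0.15, 0.21 and 0.45. The log2 ratio of Per2 to Arntl fell into the same order, with means of -2.96 ± 0.36, 2.45 ± 0.56 and -0.10 ± 0.15 (SD, n = 3 mice).

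The ratio of Nr1d1, a gene of the day, to Per2, a gene of dusk, gave another order. Its log2 value was 3.13, 1.42 and 2.11 in Control WT mice, -0.28, 0.54 and 0.28 in AOM-DSS WT mice and 2.52, 2.74 and 2.19 in AOM-DSS Claudin-2TG mice. The AOM-DSS WT mice lay below both other groups, which overlapped. The ratio of Nr1d1 to Arntl, in contrast, overlapped between the treated groups (means 2.63 ± 0.27 and 2.38 ± 0.43, SD, n = 3 mice) and was -0.73 ± 0.51 (SD, n = 3 mice) in controls. These ratios are given as descriptions, with no test. Any difference in the hour of collection between the groups cannot be told apart from treatment or transgene with these labels.

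**Figure D3:**
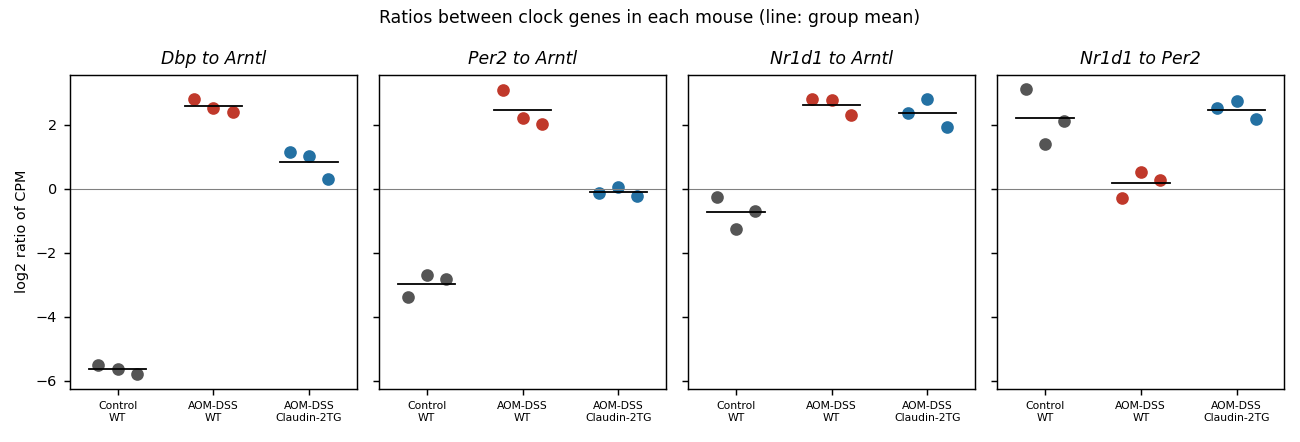
Log2 ratio of CPM (vertical axis) for 4 pairs of clock genes in each mouse, with a line at each group's mean. The ratio of Dbp to Arntl separates the 3 groups (means -5.63, 2.59 and 0.83), while the ratio of Nr1d1 to Per2 sets the AOM-DSS WT mice (mean 0.18) below both other groups.

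Levels per length show how the order of the clock genes turned over between groups. In Control WT mice Arntl had the highest mean of the 10 at 28.0 CPM per kb of exon, ahead of Nr1d1 at 16.3, Cry1 at 10.8 and Clock at 8.09, and Dbp was lowest at 0.981. In AOM-DSS WT mice Dbp was highest at 42.0 CPM per kb, ahead of Nr1d1 at 23.9 and Nr1d2 at 16.9, and Arntl was lowest at 3.93. In AOM-DSS Claudin-2TG mice Nr1d1 was highest at 47.6 CPM per kb, ahead of Dbp at 30.0, and Cry1 was lowest at 3.32. Of these genes, 3 share exon bases with a gene on the other strand, and the strand setting of the counting is not given in the sources used here. Dbp shares 539 of its 1678 exon bases (32.1%) with Sphk2, Nr1d1 shares 263 of 3077 (8.5%) with Thra and Cry2 shares 295 of 6320 (4.7%) with D930015M05Rik. Sphk2 was 89.5 to 113 CPM in controls and 59.0 to 68.4 CPM in AOM-DSS WT mice, and its log2 fold change in AOM-DSS Claudin-2TG mice was 0.08 against controls and 0.66 against AOM-DSS WT mice (edgeR adjusted p = 0.739 and 0.0224). Thra had log2 fold changes of -0.76 for AOM-DSS WT against Control WT, 0.41 for AOM-DSS Claudin-2TG against AOM-DSS WT and -0.34 for AOM-DSS Claudin-2TG against Control WT (edgeR adjusted p = 0.0189, 0.071 and 0.114), beside 0.58, 0.97 and 1.55 for Nr1d1.

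The wider clock pathway was read from a list of 24 further genes. Against Control WT, AOM-DSS WT mice had 11 of 23 tested called, 8 higher and 3 lower, and AOM-DSS Claudin-2TG mice had 6 of 22, 3 higher and 3 lower. Between the treated groups 5 of 22 were called, 1 higher and 4 lower in AOM-DSS Claudin-2TG mice. The median size of the log2 fold change over those tested was 0.71, 0.38 and 0.54 in these comparisons. Over all genes tested, 15.0%, 10.0% and 9.54% were called and the median sizes were 0.30, 0.21 and 0.22.

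Npas2, which can replace CLOCK beside ARNTL, had the same order of groups as Arntl: 65.4, 72.6 and 57.0 CPM in Control WT, 10.7, 11.8 and 16.1 CPM in AOM-DSS WT and 30.0, 28.1 and 30.5 CPM in AOM-DSS Claudin-2TG mice. Its differences passed in all 3 comparisons, with log2 fold changes of -2.32 for AOM-DSS WT against Control WT, 1.18 for AOM-DSS Claudin-2TG against AOM-DSS WT and -1.13 for AOM-DSS Claudin-2TG against Control WT (edgeR adjusted p = 0.00159, 0.00879 and 0.000694). Arntl2, a paralog of Arntl, was 0.854 to 1.34 CPM in controls, 3.00 to 5.89 CPM in AOM-DSS WT and 1.03 to 1.67 CPM in AOM-DSS Claudin-2TG mice. It was called higher in AOM-DSS WT mice against controls and lower in AOM-DSS Claudin-2TG against AOM-DSS WT mice (1.90 and -1.62, edgeR adjusted p = 0.0169 and 0.0252), and AOM-DSS Claudin-2TG mice overlapped with controls (0.29, edgeR adjusted p = 0.621).

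Ciart, the repressor with the E-boxes printed above, was 0.347 to 0.351 CPM in the Control WT mice, 22.7, 10.8 and 7.83 CPM in AOM-DSS WT and 3.31, 4.76 and 4.80 CPM in AOM-DSS Claudin-2TG mice. The log2 fold change was 5.31 for AOM-DSS WT against Control WT and 3.60 for AOM-DSS Claudin-2TG against Control WT, and the transgenic mice were lower than the treated WT mice by -1.71 (edgeR adjusted p = 0.00255, 0.000309 and 0.0339). The control values of Ciart lay near the floor, and it passed the filter only through the treated mice. The sizes of its fold changes against controls are therefore not exact. Among the other repressors, Bhlhe40 was higher in both treated groups than in controls (0.81 and 0.51, edgeR adjusted p = 0.0259 and 0.0314). Bhlhe41, at no more than 1.90 CPM, was higher in AOM-DSS WT mice than in controls (2.05, edgeR adjusted p = 0.0129). It was lower in AOM-DSS Claudin-2TG than in AOM-DSS WT mice (-1.58, edgeR adjusted p = 0.0426). With 0.347 to 0.448 CPM in controls, Bhlhe41 passed the filter only through the AOM-DSS WT mice and was not tested in AOM-DSS Claudin-2TG against Control WT. Of Ciart, Bhlhe40, Bhlhe41 and Timeless, edgeR called 2 and DESeq2 1 between the treated groups. Timeless was lower in AOM-DSS Claudin-2TG mice than in controls (-0.65, edgeR adjusted p = 0.0355).

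The other D-box factors are activators or repressors. Tef, an activator like Dbp, was 14.8, 19.2 and 12.9 CPM in Control WT, 178, 154 and 112 CPM in AOM-DSS WT and 112, 102 and 84.1 CPM in AOM-DSS Claudin-2TG mice (log2 fold change against controls 3.27 and 2.68, edgeR adjusted p = 0.000955 and 8.66e-05). Nfil3, which represses the same D-boxes, was 10.7, 8.13 and 9.29 CPM in Control WT, 2.29, 4.16 and 5.69 CPM in AOM-DSS WT and 0.964, 1.57 and 2.29 CPM in AOM-DSS Claudin-2TG mice (-1.19 and -2.54, edgeR adjusted p = 0.0455 and 0.00108). Between the treated groups neither passed by edgeR (-0.59 and -1.35, adjusted p = 0.0888 and 0.0884), although DESeq2 called 2 of the 3 D-box factors Tef, Hlf and Nfil3 there. Hlf, the remaining activator, was low throughout, at no more than 3.81 CPM, and was called higher in AOM-DSS WT mice against controls (1.62, edgeR adjusted p = 0.0338) and not in AOM-DSS Claudin-2TG mice against controls (0.54, edgeR adjusted p = 0.408).

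Rora, which encodes a receptor that activates Arntl through the element that the REV-ERB proteins repress, was 1.56 to 1.84 CPM in controls, 2.21 to 3.23 CPM in AOM-DSS WT and 1.42 to 2.07 CPM in AOM-DSS Claudin-2TG mice. The AOM-DSS WT mice lay above both other groups, but its log2 fold changes of 0.71, -0.67 and 0.05 in the 3 comparisons, in the order given above, did not pass (edgeR adjusted p = 0.11, 0.229 and 0.938). Of the genes that modify or degrade PER and CRY proteins, Csnk1e, a kinase of PER, was higher in AOM-DSS WT mice against controls (1.09, edgeR adjusted p = 0.0203). Csnk1d, the more abundant kinase at 164 to 199 CPM in every mouse, had log2 fold changes of -0.06 to 0.00 in the 3 comparisons. Of 5 further rhythmic outputs only Tspan4 was called, higher in AOM-DSS WT mice against controls (2.21, edgeR adjusted p = 0.00492) and lower in AOM-DSS Claudin-2TG against AOM-DSS WT mice (-1.75, edgeR adjusted p = 0.00804). Usp2, Tsc22d3, Wee1 and Noct did not pass in any comparison.

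**Figure D4:**
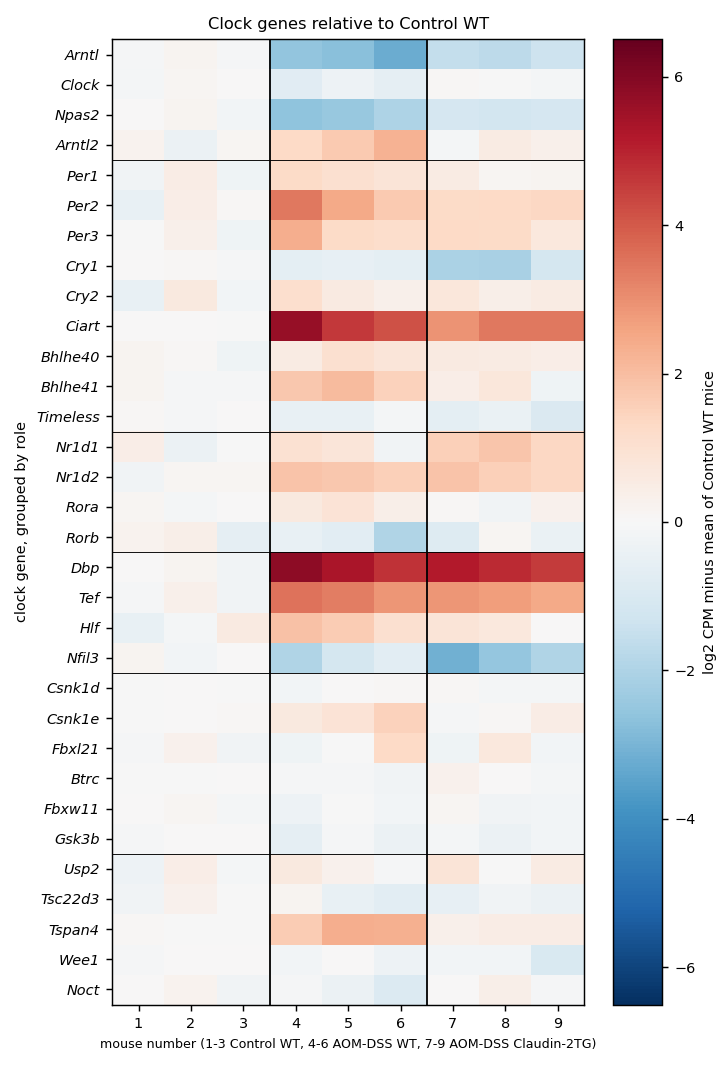
Log2 CPM of 32 clock genes (rows, grouped by role) in each of the 9 mice (columns) minus the mean of the 3 Control WT mice, with red for higher and blue for lower. Dbp, Ciart and Tef are red and Arntl, Npas2 and Nfil3 blue in all 6 treated mice, while Csnk1d, which was not called in any comparison, stays near white.

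Markers of other cell types moved with the groups, and in whole colon RNA fewer cells of a type and less RNA per cell cannot be told apart. Most immune markers were highest in AOM-DSS WT mice. The summed T cell markers were 2.71 to 6.60 CPM in controls, 12.5 to 26.1 CPM in AOM-DSS WT and 3.34 to 6.72 CPM in AOM-DSS Claudin-2TG mice, and the macrophage markers 12.4 to 17.6, 23.1 to 59.0 and 11.2 to 14.1 CPM. Of the T cell and macrophage markers, 4 of 5 and 3 of 4 tested were called higher in AOM-DSS WT mice against controls, as were 2 of 5 B and plasma cell markers (Jchain 2.61 and Mzb1 2.18), where 15.0% of all genes tested were called. In AOM-DSS Claudin-2TG mice against controls edgeR called 0 of 5 and 0 of 4 in either direction, as did DESeq2, with 0 and 2 at an unadjusted p under 0.05, the 2 being Adgre1 and Csf1r with log2 fold changes of -0.80 and -0.83. Between the treated groups, 4 of 5 T cell, 3 of 4 macrophage, 3 of 5 B and plasma cell, 2 of 5 fibroblast and 2 of 4 endothelial markers were called lower in AOM-DSS Claudin-2TG mice, with 9.54% of all genes called. Arntl was higher and Per1 and Cry1 lower in the same comparison, and their part in these clock genes was not tested. The neutrophil genes S100a8, S100a9, Cxcr2 and Csf3r were at most 0.348 CPM in controls and at most 0.203 CPM in AOM-DSS Claudin-2TG mice, and reached 18.5, 22.1, 2.56 and 6.90 CPM in AOM-DSS WT mouse 5. In mouse 4, which had the highest Dbp, Per2 and Per3, they were 0.559, 0.762, 0 and 0.711 CPM. Against controls, S100a8, S100a9 and Csf3r were called higher in AOM-DSS WT mice (log2 fold changes 6.57, 5.92 and 3.88, edgeR adjusted p = 0.0327, 0.0342 and 0.041), and Cxcr2 was too scarce to test. S100a8, S100a9 and Csf3r passed the filter only through the AOM-DSS WT mice. Over controls near 0 CPM, the sizes of these fold changes are not exact. Ly6g, the other gene of that list, was 137 to 207 CPM in controls, 298 to 327 CPM in AOM-DSS WT and 302 to 350 CPM in AOM-DSS Claudin-2TG mice, and was called higher in both treated groups against controls (0.82 and 0.87, edgeR adjusted p = 0.0206 and 0.00881). The part of immune cells in the clock gene differences against controls was not tested.

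Markers of the muscle and nerve layers had negative fold changes in both treated groups against controls (medians of -0.80 and -1.02 in AOM-DSS WT, -1.39 and -1.66 in AOM-DSS Claudin-2TG mice). The summed smooth muscle markers were 1570 to 3210 CPM in controls, 803 to 2190 CPM in AOM-DSS WT and 747 to 1140 CPM in AOM-DSS Claudin-2TG mice, with 0 and 3 of 6 called lower by edgeR in the treated groups against controls (for the 0, 2 at an unadjusted p under 0.05 and 2 by DESeq2). The enteric neuron and glia markers were 28.7 to 45.5, 11.4 to 25.4 and 12.3 to 16.9 CPM, with 1 and 6 of 6 called lower. Over all genes tested, 15.0% and 10.0% were called in the same comparisons, so 1 of 6 is near the background. Between the treated groups 0 of 6 smooth muscle and 0 of 4 neuron and glia markers tested were called by edgeR or DESeq2, and 0 had an unadjusted p under 0.05. Of the other lists in AOM-DSS Claudin-2TG mice against controls, 3 of 4 endothelial markers (Pecam1 -0.91, Cdh5 -1.69 and Kdr -1.02) and 1 of 5 fibroblast markers (Col1a2 -0.86) were called lower. Over all genes tested, 10.0% were called in that comparison. In AOM-DSS WT mice against controls all 5 fibroblast markers had positive fold changes (median 0.93). For these, edgeR called 0 and DESeq2 called 3, and 4 had an unadjusted p under 0.05. The general epithelial list had 0, 0 and 1 of 7 called by edgeR in the 3 comparisons in the order given above (for the first 2, 2 and 1 at an unadjusted p under 0.05 and 1 and 0 by DESeq2). Some markers of mature epithelial cells also differed, with 15.0% and 9.54% of all genes called in these comparisons. Of 5 colonocyte markers, Car4 and Aqp8 were called lower in AOM-DSS WT mice against controls (log2 fold changes -1.65 and -1.51, edgeR adjusted p = 0.0223 and 0.0415) and higher in AOM-DSS Claudin-2TG against AOM-DSS WT mice (1.90 and 1.84, edgeR adjusted p = 0.0131 and 0.019). Of 5 goblet cell markers, Clca1 was called in the same comparisons and directions (-0.96 and 0.98, edgeR adjusted p = 0.0173 and 0.0372). In AOM-DSS Claudin-2TG mice against controls 0 of either list were called by edgeR or DESeq2, and 0 had an unadjusted p under 0.05. The part of muscle, nerve, endothelial, fibroblast, colonocyte and goblet cells in the clock gene differences was not tested.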

How the data were processed

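The authors sequenced colon RNA of 9 mice and deposited a table of raw read counts per gene for 47729 genes, with a column for each of the 2 lanes of each library. The study's methods name TopHat2 for mapping and the submitters' processing notes name HISAT2, with featureCounts of Subread and GRCm38; versions and the strand setting are not given in the sources used here. Symbols came from GENCODE M21, which lists 47224 of the identifiers, and 505 have no symbol.

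Lanes were summed per mouse, for 14142711 to 22262546 counts per library, and groups were taken from the genotype and treatment labels. Groups were compared 2 at a time over all genes with edgeR 4.0.16 (R 4.3.3): TMM (trimmed mean of M-values) scaling, removal of low genes by filterByExpr at its defaults (10 counts, 15 in total), robust fitting, a quasi-likelihood test (two-sided) and adjustment by Benjamini-Hochberg, with calls at an adjusted p-value under 0.05. The biological coefficient of variation was 0.218 for AOM-DSS WT against Control WT, 0.217 for AOM-DSS Claudin-2TG against AOM-DSS WT and 0.149 for AOM-DSS Claudin-2TG against Control WT. Standard errors were derived from the test statistic. The same steps were tested on simulated data. The study's own tool, DESeq2 (1.42.0 here), was an alternative, with other normalizations, filters, all 9 libraries in one fit, single lanes and leaving out each mouse. CPM per kb used the exon length of each gene in the annotation. Python 3.11.15 was used for tables and plots.

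The members and lists were chosen with earlier results of these data known. All 10 members are named, and of the listed genes those called in at least 1 comparison and the 2 with the highest mean CPM of a list were eligible; others named were chosen after their values were seen. Genes that vary most like Arntl or Dbp are the 5 highest and 5 lowest Pearson r with each, among genes with a mean of at least 1 CPM. Some genes of the lists enter the counts over them and are not reported here by name.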

Additional observations from a re-analysis of the deposited data

How the results depend on the processing

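Across 15 alternatives per comparison, each changing 1 choice, 405 of 450 log2 fold changes of the 10 genes stayed on the same side of the threshold with the same direction, 30 lost the call, 12 gained it and 3 changed sign without passing in either fit. The number of clock genes called ranged from 3 to 8 when 1 mouse was left out of AOM-DSS WT against Control WT (8 with all mice), from 0 to 5 for AOM-DSS Claudin-2TG against AOM-DSS WT (3 with all mice) and from 7 to 8 for AOM-DSS Claudin-2TG against Control WT (7 with all mice). For AOM-DSS Claudin-2TG against AOM-DSS WT it was 6 with DESeq2 and 5 with all 9 libraries in one fit. The sign changes were Cry2 between the treated groups, -0.30 to 0.08 with 1 mouse left out, and Clock in AOM-DSS Claudin-2TG against Control WT, -0.10 to 0.03. All genes called moved too, from 135 to 4080, 58 to 2894 and 525 to 1383 with 1 mouse left out of the 3 comparisons in this order, and in the last from 1501 to 2567 without a filter and 445 with all 9 libraries in one fit. The cause was not tested. With library size in place of TMM, the median log2 fold change of all genes in AOM-DSS Claudin-2TG against Control WT moved from 0.00 to -0.11, and no member changed sign under any scaling tried. The paper states that its Cldn2-modified mice were studied beside WT littermates, with mice matched for age and sex. The labels do not say which mice were siblings, so no paired analysis was possible. Among the 10 members, depth limits Dbp most, in the controls, where it had 34, 37 and 32 counts. Outside the members, Ciart was scarcer still there, at 0.347 to 0.351 CPM.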

Other observations

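Glucocorticoid targets and immediate early genes were set beside the clock genes. Of 5 glucocorticoid targets, 2 were lower in AOM-DSS WT mice than in Control WT mice, Fkbp5 (log2 fold change -0.81, edgeR adjusted p = 0.00834) and Klf9 (-0.70, edgeR adjusted p = 0.0265), where 15.0% of all genes tested were called, and 0 were called by edgeR or DESeq2 in AOM-DSS Claudin-2TG mice against AOM-DSS WT (0 at an unadjusted p under 0.05) or Control WT mice (2 at an unadjusted p under 0.05). Fkbp5, a feedback regulator of the glucocorticoid receptor, was 75.5, 93.0 and 80.5 CPM in Control WT, 46.6, 48.0 and 45.4 CPM in AOM-DSS WT and 32.9, 32.8 and 71.7 CPM in AOM-DSS Claudin-2TG mice. Mouse 9 stood apart from the other transgenic mice. Of 9 immediate early genes, Nr4a1 was higher in AOM-DSS WT mice than in controls (1.50, edgeR adjusted p = 0.00763) and Jun was lower in AOM-DSS Claudin-2TG mice than in controls (-0.93, edgeR adjusted p = 0.00881). In AOM-DSS WT mice against controls, AOM-DSS Claudin-2TG against AOM-DSS WT and AOM-DSS Claudin-2TG against controls, edgeR called 1, 0 and 1 of the 9, DESeq2 called 4, 1 and 2, and 5, 3 and 2 had an unadjusted p under 0.05. Over all genes edgeR called 15.0%, 9.54% and 10.0%, so these edgeR counts are near or below the background. Mouse 9 also had the highest Egr1 and Fos, at 190 and 621 CPM against 8.26 to 61.3 and 107 to 281 CPM in the other 8.

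Covariation within groups was read for Dbp and Arntl. With each gene's log2 CPM centred on its group mean over the 9 mice, which share libraries and depth, Dbp had a Pearson r of 0.93 with Tef and 0.88 with Per3, and 0.417% and 1.26% of 13915 genes had a higher r with Dbp. It was -0.96 with Csnk1e and -0.90 with Nfil3, 0.04 with Clock and -0.39 with Cry1. Dbp and Arntl, which lie on opposite sides between groups, had r = 0.62 within them, and 10.9% of genes had a higher r with Dbp. Over all these genes, those highest with Dbp were Syne2, Trpv3, Cipc, Ces1e and Pxylp1 (r from 0.982 to 0.986), of which Cipc encodes a protein that binds CLOCK, and those lowest were Rpn1, Gm9774, Cct3, Ostc and Tuba1c (r from -0.994 to -0.979). With Arntl the highest were Arhgef16, Mtmr4, Plekha8, Kif21a and Tnfrsf21 (r from 0.971 to 0.993) and the lowest Ncaph, Gm13461, Pola1, Spdl1 and Hmgb2 (r from -0.993 to -0.981). With so few mice and so many genes, values of this size are a description only.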
